A study of Homo sapiens with 6 samples.

Results

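A set of 10 genes of the long arm of chromosome 5 that are candidates for haploinsufficiency in myeloid leukemias with a 5q deletion were compared between SET-2 leukemia cells and a drug-resistant derivative. They are RPS14, NPM1, G3BP1, APC, CSNK1A1, CTNNA1, DIAPH1, EGR1, DDX41 and HSPA9, found by symbol as 10 of the 19785 gene rows of the deposited table, 1 row each, and the annotation placed all 10 on chromosome 5. The genes were selected on their known place in 5q deletions with the parental and OTX P/R values of this same comparison already seen, so their values are given as a description and no p-value is printed for them.

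SET-2 is an established line of leukemia blasts, labelled as secondary AML (acute myeloid leukemia). The parental line was set against SET-2 OTX P/R, a persister and resistant derivative; the labels do not spell out OTX, and the series title speaks of resistance to BET inhibitors, which block the bromodomain readers of acetylated histones. Both lines were grown in RPMI1640 with 20% FBS, sampled in exponential phase and labelled as untreated, so no drug was present in either group. Total RNA of 3 libraries per line, described as biologic replicates, was sequenced. A single resistant derivative is named, so differences that came with resistance and other differences between these lines cannot be told apart, and the p-values measure only the spread between these libraries.

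Loss of part of the long arm of chromosome 5 is a recurrent lesion of myelodysplastic syndrome and acute myeloid leukemia. In these diseases the remaining copy of the affected genes is usually intact, and the disease is attributed to the reduced dose of several genes together rather than to the complete loss of any one of them. RPS14 is tied to the anemia of the 5q- syndrome, CSNK1A1 to beta-catenin activity and to lenalidomide response, and DDX41 to inherited predisposition.

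The table gave a normalized abundance per gene and library, with library sums from 419375 to 419437. These sums are nearly equal because the values were quantile-normalized, so the depth is unknown and no counting interval can be given. Differences are on the scale of log2(value + 1), OTX P/R minus parental, which understates changes of low genes. Of the 8 blast and megakaryoblast markers, all were above the minimum mean of 1. GATA1 did not pass the limma test (188.7 ± 4.90 parental, 204.0 ± 3.87 OTX P/R; SD, n = 3 per group), and the other 7 changed: the log2 difference was -1.21 for PTPRC, -0.95 for KIT and -0.64 for ITGA2B, against 1.92 for ITGB3, 0.94 for CD34, 0.54 for GP9 and 0.47 for GATA2. Of 19 markers of monocytes and granulocytes, lymphoid cells, and stroma and endothelium, 3 were above it, LYZ, CD79A and PECAM1, and S100A8 and MS4A1 were listed at 0 in all 6 libraries. The summed level of the stroma and endothelium list was 7.38 to 8.65 in parental and 16.9 to 18.1 in OTX P/R libraries. The part of these other markers in the results below was not tested.

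Of the 10 genes, 8 were high enough to be tested and all 8 were lower in OTX P/R cells, with a median log2 difference of -0.66. The order from the largest difference was NPM1, RPS14, DDX41, CSNK1A1, G3BP1, HSPA9, CTNNA1 and DIAPH1, and in this order the 95% interval of each gene overlapped that of the next. APC and EGR1, with means under 1, were not tested. The count of 8 of 8 past a limma adjusted p of 0.05 stands beside 36.1% of the 10741 tested genes in either direction and 17.5% in the lower direction. The 3 libraries of each group did not overlap for any of the 8, against 24.9% of tested genes that were lower without overlap. Nothing is read from these counts, because the comparison had been seen when the genes were chosen. In bulk RNA, fewer cells that carry a transcript and less of it per cell cannot be told apart.

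**Figure D1:**
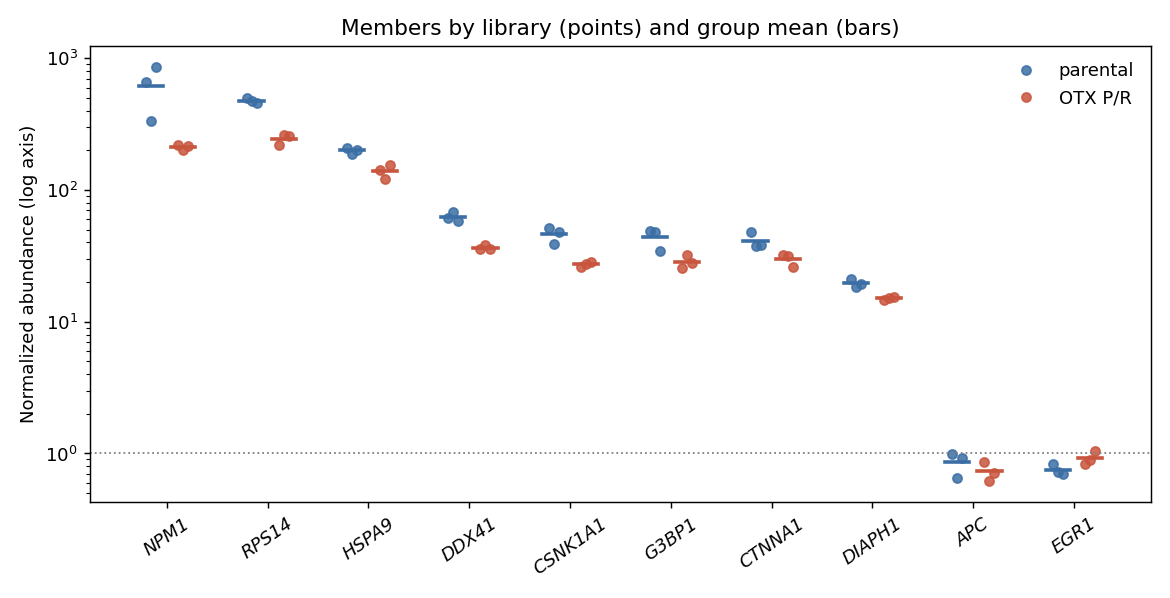
Normalized abundance (log axis) of the 10 genes in each of the 6 libraries, ordered by parental mean; points are libraries, short bars group means, and the dotted line the minimum mean of 1 for testing. The OTX P/R points of the 8 higher-expressed genes lie below all their parental points, while APC overlaps and EGR1 is slightly higher.

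RPS14, NPM1 and G3BP1 act in ribosome assembly and in the control of mRNA. RPS14, a protein of the small ribosomal subunit, had abundances of 498.7, 471.9 and 456.9 in the parental libraries and 219.1, 262.1 and 255.1 in the OTX P/R libraries. All 3 OTX P/R values were well under the lowest parental value, and the spread within each line was small. The OTX P/R mean was 51.6% of the parental mean, a log2 difference of -0.96 ± 0.08 (SE, n = 3 per group) with a 95% interval of -1.15 to -0.76. Within the ranking of each library RPS14 moved from places 101 to 109 to places 203 to 249.

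NPM1, the nucleolar phosphoprotein nucleophosmin, had parental abundances of 666.6, 332.8 and 864.2 and OTX P/R abundances of 218.3, 200.5 and 215.2. The OTX P/R libraries were tightly grouped, whereas the parental libraries ranged widely, with replicate 2 far below the others. NPM1 therefore had both the largest difference of the 8, -1.45, and the largest error, 0.34 (SE, n = 3 per group; interval -2.27 to -0.62). Without parental replicate 2 the difference was -1.84 and without parental replicate 3 it was -1.15. The annotation lists 45 pseudogenes named after NPM1 and 3 named after RPS14, and reads may be shared with such copies.

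G3BP1, a core protein of stress granules, had parental abundances of 49.1, 48.4 and 34.6 and OTX P/R abundances of 25.7, 31.9 and 28.1. Parental replicate 3 lay close to the OTX P/R range, without overlapping it. The OTX P/R mean was 64.9% of the parental mean and the log2 difference was -0.59 ± 0.15 (SE, n = 3 per group).

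APC and CSNK1A1 belong to the machinery that marks beta-catenin for degradation: APC is a scaffold of the destruction complex and CSNK1A1 is the casein kinase that places the priming phosphate on beta-catenin. CSNK1A1 stood at 51.4, 38.7 and 48.0 in the parental libraries and at 26.1, 27.3 and 28.6 in OTX P/R. The OTX P/R libraries differed little among themselves and all lay below the lowest parental library. Their mean was 59.5% of the parental mean, a log2 difference of -0.72 ± 0.11 (SE, n = 3 per group). APC was near the lower end of what was measured, at 0.995, 0.653 and 0.926 in parental and 0.865, 0.615 and 0.713 in OTX P/R libraries. The groups overlapped, and the log2 difference was -0.10.

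CTNNA1 and DIAPH1 are proteins of the actin cytoskeleton. CTNNA1, alpha-catenin, which links cadherin and beta-catenin to actin, had parental abundances of 47.7, 37.9 and 38.1 and OTX P/R abundances of 32.3, 31.7 and 26.3. The OTX P/R mean was 72.9% of the parental mean, with a log2 difference of -0.44 ± 0.12 (SE, n = 3 per group). DIAPH1, a formin that extends actin filaments, had parental abundances of 21.0, 18.5 and 19.5 and OTX P/R abundances of 14.5, 15.1 and 15.4. Its libraries were tight in both lines, and its difference of -0.37 ± 0.06 (SE, n = 3 per group; OTX P/R mean 76.4% of parental) was the smallest of the 8.

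EGR1, DDX41 and HSPA9 act in transcription, in RNA processing and in the mitochondrion. DDX41, a DEAD-box helicase of the spliceosome, had parental abundances of 61.2, 67.6 and 58.3 and OTX P/R abundances of 35.9, 38.2 and 35.5, a mean at 58.6% of the parental mean. Its log2 difference was -0.75 ± 0.07 (SE, n = 3 per group). HSPA9, the mitochondrial Hsp70 mortalin, stood at 210.1, 189.1 and 201.7 against 143.0, 120.6 and 154.6, with a log2 difference of -0.53 ± 0.10 (SE, n = 3 per group) and a mean at 69.6% of the parental mean. Both genes were lower in every OTX P/R library than in any parental library.

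EGR1, an immediate early zinc finger transcription factor, was the exception in direction. Its parental abundances were 0.833, 0.729 and 0.693 and its OTX P/R abundances were 0.835, 0.897 and 1.04. The values did not overlap, but the highest parental and the lowest OTX P/R library were almost equal, and the log2 difference was 0.13. EGR1 and APC ranked between places 10555 and 11137 in the 6 libraries. When genes of all levels above 0 were tested, neither was called in either direction.

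The promoter sequences of 4 of the genes are shown, EGR1 because its difference alone was above 0, and RPS14, DDX41 and CSNK1A1 as lower genes whose windows hold the ETS core, picked after the sequences were seen. All are RefSeq sequences on GRCh38.p14, the 250 bases before the annotated start, written 5′ to 3′ along the gene, and for CSNK1A1 the first of 2 listed starts was taken. The EGR1 window is chr5:138465229-138465478 on the plus strand, and its capitals mark 2 matches to the CArG box, the binding site of serum response factor. The other windows lie on the minus strand, at chr5:150449740-150449989 for RPS14, chr5:177516962-177517211 for DDX41 and chr5:149551440-149551689 for CSNK1A1, and their capitals mark CCGGAA, the core of ETS factor sites, or its reverse complement.
EGR1: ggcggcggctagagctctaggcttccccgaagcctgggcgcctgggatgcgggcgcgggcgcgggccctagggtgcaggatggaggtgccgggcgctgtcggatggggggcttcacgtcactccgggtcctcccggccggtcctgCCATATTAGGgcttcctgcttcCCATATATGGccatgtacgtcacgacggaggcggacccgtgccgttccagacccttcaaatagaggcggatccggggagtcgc
RPS14: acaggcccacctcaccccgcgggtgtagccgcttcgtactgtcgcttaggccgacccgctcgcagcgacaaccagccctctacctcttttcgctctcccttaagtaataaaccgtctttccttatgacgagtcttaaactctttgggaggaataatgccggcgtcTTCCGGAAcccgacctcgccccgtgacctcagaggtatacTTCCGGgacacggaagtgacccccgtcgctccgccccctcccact
DDX41: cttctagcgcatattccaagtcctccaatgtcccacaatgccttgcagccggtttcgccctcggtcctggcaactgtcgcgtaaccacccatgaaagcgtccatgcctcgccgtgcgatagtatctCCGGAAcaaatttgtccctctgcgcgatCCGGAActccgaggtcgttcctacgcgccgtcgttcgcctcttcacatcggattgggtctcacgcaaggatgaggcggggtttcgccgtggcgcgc
CSNK1A1: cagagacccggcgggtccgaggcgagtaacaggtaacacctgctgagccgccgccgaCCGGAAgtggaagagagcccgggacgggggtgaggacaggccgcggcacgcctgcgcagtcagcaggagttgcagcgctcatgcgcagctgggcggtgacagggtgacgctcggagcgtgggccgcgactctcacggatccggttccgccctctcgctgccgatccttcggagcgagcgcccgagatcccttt

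Across 35116 RefSeq promoter windows of 250 bases, searched on both strands, a CArG box was found in 1.16% and, among the 10 genes, in EGR1 alone. CCGGAA was found in 14.5% of windows and in 4 of the 10 genes, RPS14, DDX41, CSNK1A1 and CTNNA1. In RPS14, 2 of the 3 matches overlap as a palindrome. GGGCGG, a GC box, was found in 6 of the genes and in 42.6% of windows, and CCAAT in 7 genes and 32% of windows. CACGTG was found in 3 genes (6.34% of windows), TGACG in 4 (21.2%), and TATAAA and GCATGCGC in none (10.7% and 2.63%). A gene with several listed starts counted when any of them held the letters. The percentages count single windows, so the gene counts and the percentages are not like measures. The motifs were picked with the sequences in view, and a match is a description of the letters only.

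The place of each gene on the chromosome was then set beside its difference. In order from the short arm end, the genes are APC, EGR1, HSPA9, CTNNA1, DIAPH1, CSNK1A1, RPS14, G3BP1, NPM1 and DDX41. Outside the set, chromosome 5 had 447 tested genes with a median log2 difference of -0.31, and 45.2% of them were called lower. The tested genes of other chromosomes had a median of 0.02, with 16.2% lower. Chromosome 7 lay at the other end, with a median of 0.33. The 191 tested genes before APC had a median of -0.06, with 44 lower and 23 higher, and the lower genes were gathered at the short arm end. In 4 parts along the order, the first 48 genes, CCDC127 to BRIX1, had a median of -0.39 with 24 lower and 3 higher, and the medians of the other three lay between -0.03 and -0.01. The first 8 tested genes of the chromosome, CCDC127 to NKD2, were all lower, with a median of -1.29, among them EXOC3 at -1.81. The end of this run was taken from the values, as the next gene, SLC12A7, was higher at 0.36.

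Between APC and EGR1 the level changed along the chromosome. The 71 tested genes of this interval were split by gene order, not by distance in bases. The first 35 after APC had a median of -0.02, with 3 lower and 4 higher. The following 36 up to EGR1, from FNIP1 on, had a median of -0.77, with 31 lower, and all 36 had a difference below 0. That run of negative differences went on past EGR1 through 29 more tested genes, 65 in all, and ended at PCDHGA1, a gamma protocadherin gene. FNIP1 was found as the start of the run from these values, so its position is a description.

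**Figure D2:**
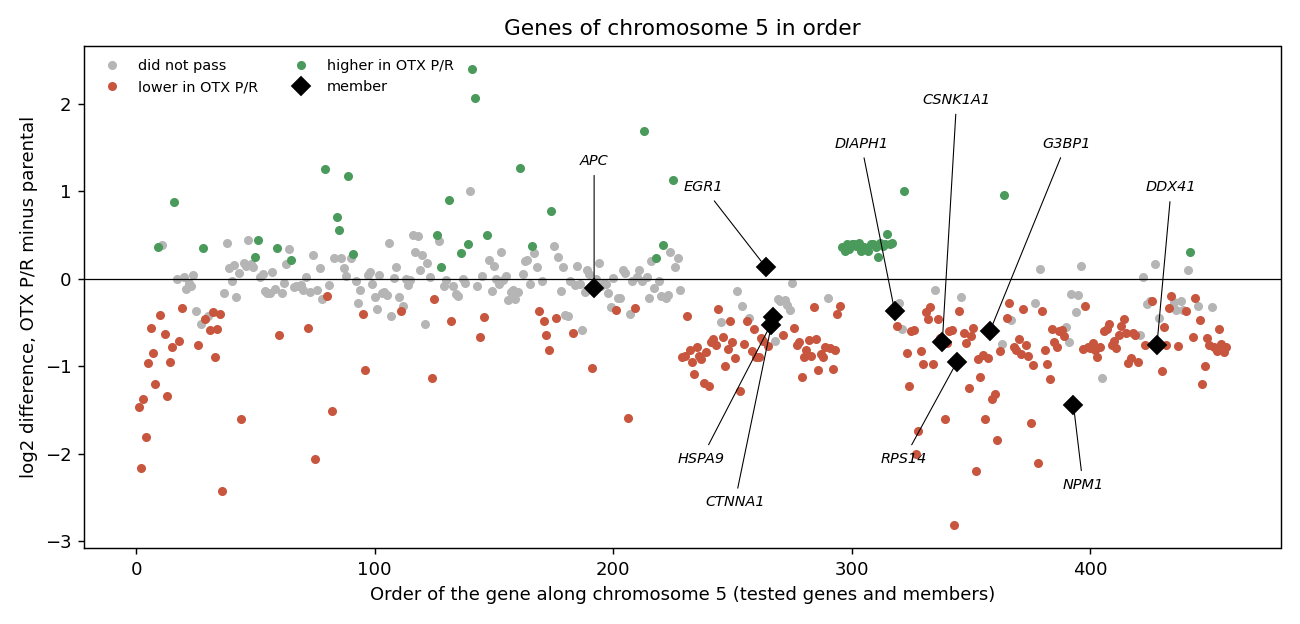
Log2 difference (OTX P/R minus parental) of each tested gene of chromosome 5 and of the 10 genes, against its order along the chromosome; colours give the limma call and black diamonds the 10 genes. APC lies among genes around 0, and the other 9 lie in the distal part, where most tested genes were lower; a further group of lower genes stands at the short arm end, and the flat group of green points before DIAPH1 is the protocadherin cluster.

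From EGR1 to the end of the chromosome, 162 tested genes outside the protocadherin family had a median of -0.68, with 123 lower, 3 higher and 36 that did not pass. The share lower was 75.9%, beside 17.5% of all tested genes. The intervals between neighbouring genes of the set had like medians: -0.59 over 19 genes from DIAPH1 to CSNK1A1, -0.74 over 5 from CSNK1A1 to RPS14, -0.87 over 13 from RPS14 to G3BP1, -0.73 over 34 from G3BP1 to NPM1 and -0.64 over 34 from NPM1 to DDX41. The 29 tested genes beyond DDX41 had a median of -0.55, with 20 lower and 1 higher. The interval from CTNNA1 to DIAPH1 differed, with 20 lower and 22 higher genes among 50. All 22 higher genes were gamma protocadherin genes. Between APC and DDX41, 22 of 23 tested protocadherin genes were higher, and PCDHB2 fell by 0.40. The median of the 23 was 0.38. HDAC3, next after DIAPH1, fell by 0.54 on the log2 scale (limma adjusted p = 0.0016). The gamma protocadherin genes share exons, so the authors' program could divide their reads between them. PCDHGC4 and PCDHGC5 had low and nearly equal means, from 1.48 to 2.28 and from 1.47 to 2.27. The 22 may therefore not be separate measurements.

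Of the 10 genes, 4 lay within 0.2 on the log2 scale of the genes around them. For each gene the 10 nearest tested genes on either side, the set itself left out, gave a local median. CSNK1A1 differed from it by -0.07, HSPA9 by 0.08, CTNNA1 by 0.17 and APC by -0.03. HSPA9 and CTNNA1 have no tested gene between them and share the same 20 neighbours, most of which are also those of EGR1. RPS14 was lower than its local median of -0.67 by -0.29, DDX41 lower than -0.40 by -0.35, and G3BP1 higher than -0.85 by 0.25. NPM1, with its wide error, was lower than all 20 of its neighbours, whose median was -0.69. EGR1 was higher than all 20 of its neighbours, each of which had a difference below 0. DIAPH1 had a local median of 0.31, which became -0.78 when protocadherin genes were passed over, and 16 of those 20 genes were then lower than DIAPH1. These gaps are descriptions, with no test of their own. For APC and EGR1, with means under 1 and not tested, log2(value + 1) draws the difference toward 0.

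**Figure D3:**
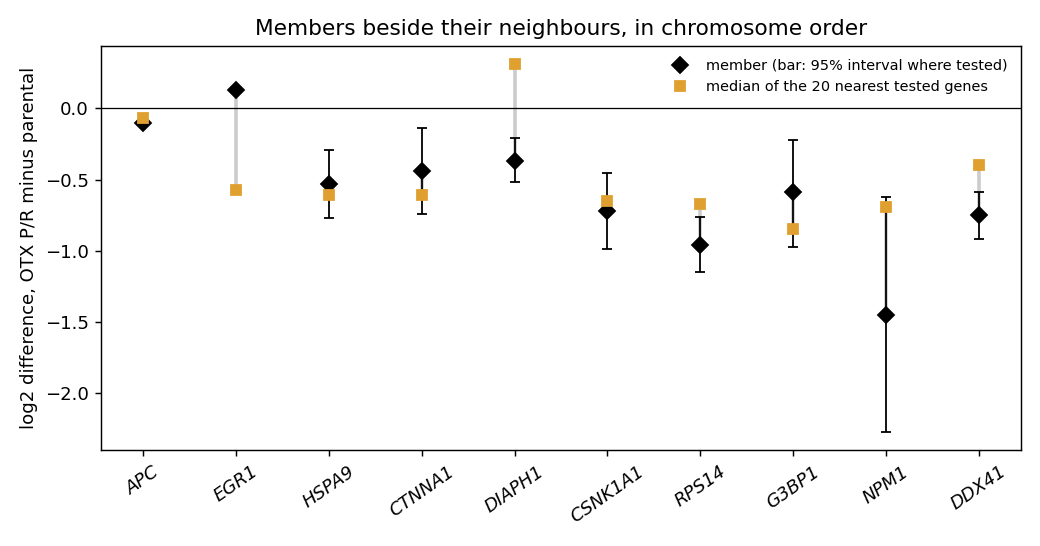
Log2 difference of each of the 10 genes (diamonds, with the 95% interval where tested) beside the median of its 20 nearest tested genes (squares), in chromosome order. NPM1, with the widest interval, lies farthest below its neighbours (-0.76) and EGR1 farthest above its own (0.70). DIAPH1 lies beside the protocadherin cluster. APC and EGR1 averaged under 1 and were not tested.

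Single neighbours spanned a wide range. Next to RPS14, CD74, the invariant chain of class II antigen presentation, fell from 217.1 ± 8.20 to 30.02 ± 3.27 (SD, n = 3 per group; log2 difference -2.82, limma adjusted p = 1.06e-05), while TCOF1, of ribosomal RNA synthesis, fell by 0.59 and SYNPO did not pass at -0.21. Beside G3BP1, the matrix protein SPARC fell by 1.61 and the copper chaperone ATOX1 by 0.90, both named in the commonly deleted region of the 5q- syndrome, and FAM114A2 and MFAP3 fell by 1.38 and 1.31. Beside CSNK1A1, the sulfate transporter SLC26A2 fell by 1.60, TIGD6 by 0.74, PCYOX1L by 0.68 and GRPEL2 by 0.45. EGR1 has as neighbours KDM3B, a histone demethylase, which fell by 0.71, FAM53C, which fell by 0.68, and ETF1, the translation release factor, which fell by 0.77. SIL1 and MATR3, after CTNNA1, did not pass, at -0.71 and -0.23 with SEs of 0.40 and 0.30.

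Around NPM1 the nearest genes did not pass: LCP2 at -0.72, TLX3 at -0.17, FBXW11 at -0.38 and STK10 at -0.19. Around DDX41, TMED9, a secretory pathway protein, fell by 1.05 and PDLIM7 by 0.25, while DOK3 and FAM193B did not pass, at 0.17 and -0.45. Around APC, NREP fell by 1.02 and STARD4 and SRP19 did not pass, at 0.06 and 0.19. RELL2, after DIAPH1, did not pass at -0.27, and PCDHGC4 and PCDHGC5 before it rose by 0.40 and 0.41. NDST1, after RPS14, fell by 0.37.

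Among genes that averaged 5 or more in the higher line, the falls with the largest size between APC and DDX41, after CD74, were those of the annexin ANXA6 (-2.20 on the log2 scale), the bile acid binding protein FABP6 (-2.11), the glycosyltransferase GALNT10 (-1.84) and the phosphatase UBLCP1 (-1.65). Of lower level, ARHGAP26 fell by 2.01. Outside the protocadherin family 6 genes rose there, 3 of them at that level: PPIC, a cyclophilin, from 1.75 ± 0.308 to 7.85 ± 0.232 (SD, n = 3 per group; log2 difference 1.69, limma adjusted p = 7.62e-05), ISOC1 by 0.39 and LMNB1, lamin B1, by 0.23. The other three, CDC42SE2, ARAP3 and FAXDC2, averaged less and rose by 1.13, 1.01 and 0.96.

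A wider list of 68 other genes of the chromosome that have been discussed in myeloid 5q loss or lie in its deleted regions was in large part lower. Of the 59 tested, 48 fell, 2 rose and 9 did not pass, with a median of -0.71. By position, 15 of 16 between APC and EGR1 fell. All 16 lie in the part of this interval from FNIP1 on, where 86.1% of the 36 tested genes fell. From EGR1 on 33 of 40 fell, beside 75.9% of tested genes outside the protocadherin family. Over all tested genes the share lower was 17.5%. Of the 3 before APC, MEF2C rose and XRCC4 and RASA1 did not pass, at -0.24 and -0.13. Among the largest falls after CD74 and ANXA6 was NR3C1, the glucocorticoid receptor, from 4.28 ± 0.312 to 0.646 ± 0.614 (SD, n = 3 per group; log2 difference -1.74, limma adjusted p = 0.00281). The phosphatase catalytic subunit PPP2CA fell by 0.69, IRF1 by 0.89, HDAC3 by 0.54, CDC25C by 0.90, SMAD5 by 0.74 and SQSTM1, an autophagy receptor, by 1.21. MEF2C, a transcription factor of megakaryocytes, rose from 11.3 ± 1.90 to 28.5 ± 1.26 (log2 difference 1.27, limma adjusted p = 0.00044), and HNRNPH1, near the end of the chromosome, rose by 0.31. Of the genes not tested, CSF1R, PDGFRB, TIFAB, TGFBI, TCF7 and EBF1 had means under 0.2 in both lines. The list holds genes already known to be lower here, so it is no independent evidence of a direction.

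Partners of the 10 genes that work in the same complexes or pathways were taken next, in 10 lists with 169 tested genes, most of them on other chromosomes; 9 of the lists are described. Of these 25 fell (14.8%), 23 rose (13.6%) and 121 did not pass, with a median of 0.00, beside 17.5% lower and 18.6% higher over all tested genes.

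Among 31 other proteins of the small ribosomal subunit, 4 fell, 2 rose and 25 did not pass. Their median was -0.01, with a range from -0.62 to 0.41. RPS28 fell from 373.8 ± 11.7 to 242.6 ± 5.21 (SD, n = 3 per group; limma adjusted p = 0.000152), and RPS15 fell by 0.37, while RPS19, a Diamond-Blackfan anemia gene, rose by 0.33 and RPS21 by 0.22. All 31 had differences above the -0.96 of RPS14. RPS23, the only gene of the 31 on chromosome 5, lies before APC and stood at 146.3 ± 6.54 and 145.4 ± 5.31 (log2 difference -0.01). Among 21 nucleolar genes around NPM1, 6 fell and 1 rose. RPL23, a ribosomal protein that binds MDM2, fell by 1.14, the paralogs NPM2 and NPM3 fell by 0.64 and 0.20, TCOF1 fell by 0.59, and nucleolin, NCL, rose by 0.31. Among 18 stress granule genes 2 fell, among them FXR1 by 0.26, and 2 rose, YBX1 by 0.50 and FXR2 by 0.18. G3BP2, the close paralog of G3BP1, did not pass, at 45.5 ± 8.71 in parental and 55.4 ± 2.98 in OTX P/R cells (SD, n = 3 per group; log2 difference 0.29, 95% interval -0.03 to 0.62).

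Of 17 genes of the beta-catenin destruction complex and its regulators, 2 rose and 15 did not pass in the limma test, and at an unadjusted p under 0.05 there were 3 lower and 2 higher. AXIN1, a scaffold that works with APC, rose from 16.1 ± 0.474 to 21.2 ± 0.974 (SD, n = 3 per group; limma adjusted p = 0.00326), and DVL1 rose by 0.53. The kinase GSK3B stood at 6.90 ± 0.201 and 7.01 ± 0.311, and the casein kinases CSNK1D and CSNK1E did not pass, at 0.32 and -0.21. BTRC and FBXW11, which recognise phosphorylated beta-catenin, did not pass either, at -0.75 ± 0.28 and -0.38 ± 0.16 (SE). Among 8 adherens junction genes, plakoglobin, JUP, fell from 18.3 ± 2.42 to 5.77 ± 0.265, and vinculin, VCL, CTNNAL1 and PVRL2 rose by 0.52, 0.26 and 0.31. CTNNA2 and CTNNA3, the other alpha-catenins, had means below 0.001. Of 12 formin, small GTPase, profilin and actin-linked transcription genes, 7 passed: FMNL1 fell by 0.82 and RHOC fell by 0.45, and 5 rose, among them RHOB from 1.43 ± 0.166 to 5.08 ± 0.143, the formin DAAM1 by 0.86 and profilin, PFN1, by 0.59. Of the other mDia formins, DIAPH3 did not pass, at 0.15, and DIAPH2 had means of 0.0906 and 0.0269 and was not tested.

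Among 14 tested immediate early genes and EGR partners, SRF, the factor that binds CArG boxes, rose from 21.1 ± 1.32 to 31.6 ± 0.536 (SD, n = 3 per group; limma adjusted p = 0.000766), and JUND and IER5 rose by 0.35 and 0.21. ZFP36, which destabilises mRNA, fell by 0.55 and ELK4 by 0.26, and 9 did not pass. EGR2, EGR3, EGR4, FOS and FOSB had means under 0.2, below those of EGR1 (0.752 and 0.923). The corepressors NAB1 and NAB2 did not pass, at 0.35 and -0.02.

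Of 20 mitochondrial chaperone and iron-sulfur genes around HSPA9, 3 fell and 17 did not pass (at an unadjusted limma p under 0.05, 4 lower and 2 higher). GRPEL2, a nucleotide exchange factor for HSPA9 that is itself encoded near CSNK1A1, fell by 0.45, and the proteases LONP1 and CLPX fell by 0.33 and 0.29. Its counterpart GRPEL1, on chromosome 4, did not pass, at 0.09, and HSPD1 and HSPE1 did not pass, at 0.02 and 0.15. Among 12 genes of nucleic acid sensing, to which DDX41 has been linked, the RNA sensors IFIH1 and DHX58 and the nuclease TREX1 fell by 0.60, 0.51 and 0.54, and IRF3 and MAVS rose by 0.56 and 0.31. TMEM173, the adaptor STING, lies on chromosome 5 and did not pass, at 40.0 ± 2.15 and 38.7 ± 0.725 (SD, n = 3 per group).

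**Figure D4:**
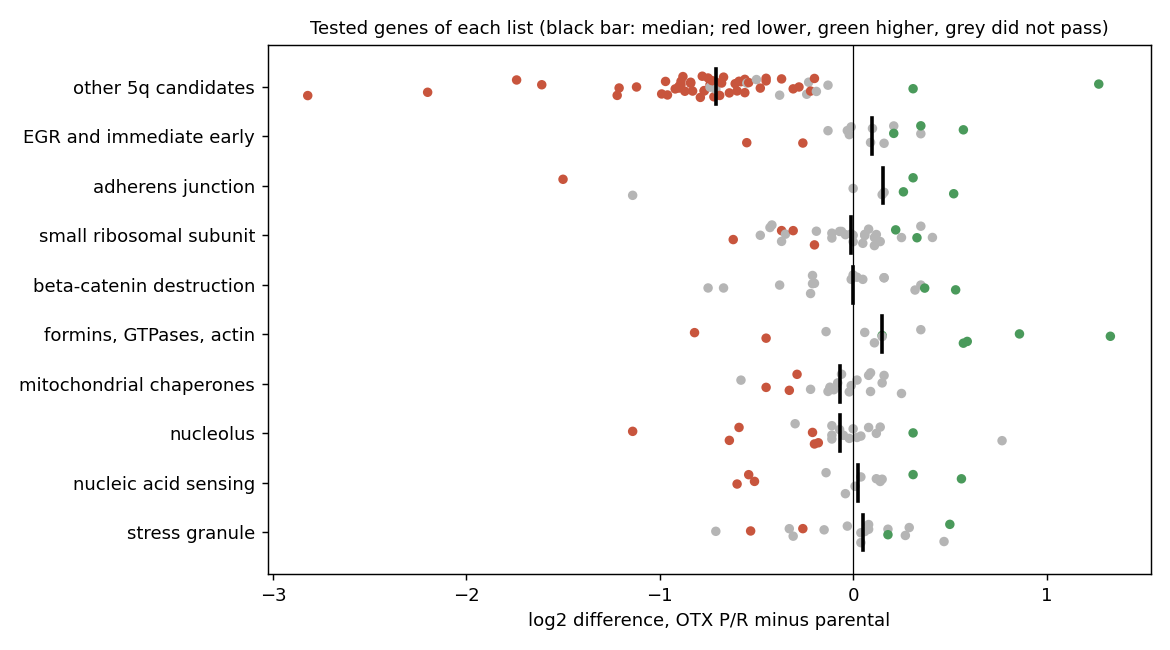
Log2 difference (OTX P/R minus parental) of the tested genes of the other 5q candidate list and of 9 partner lists; each point is a gene, coloured by its limma call, and black bars are medians. The 5q candidates centre on -0.71, and the medians of the partner lists lie between -0.07 and 0.15.

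The calls of 5 of the 8 tested genes, RPS14, CSNK1A1, DIAPH1, DDX41 and HSPA9, held in each of the 14 alternatives, while those of NPM1, G3BP1 and CTNNA1 were lost when single libraries were left out. The count of 8 became 5 with parental replicate 1 left out, and also with OTX P/R replicate 1 or 3 left out. In these fits the lower calls over all tested genes also went down, from 1881 to 1670, 1544 and 1568. These refits reuse the same libraries, and the genes were chosen with the comparison seen, so calls that held are a description, not added evidence. Over all tested genes, 18.6% were called higher and 26.8% were higher without overlap between the groups.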

How the data were processed

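RNA sequencing values of 6 libraries were grouped by sample title. Per the submitters' processing notes, reads went through Trim Galore, HISAT2 and StringTie on hg19, with no version given in the sources used here. The authors deposited a StringTie abundance per gene, a signal of which FPKM or TPM is not stated. Sorted values differed by at most 0.243% between libraries at 1 or more, so the authors' table is quantile-normalized and holds ranks rather than depth.

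Rows with a missing value (6) were dropped. GENCODE v29 (GRCh38) matched 19528 identifiers without version and gave chromosome and order; no coordinates were carried to hg19. limma 3.58.1 (R 4.3.3) was fitted to log2(value + 1) for the 10741 genes averaging 1 or more, with a trended prior, two-sided, and Benjamini-Hochberg adjustment over all of them (threshold 0.05). Exact permutation of 3 against 3 cannot go below 0.1. The fit was tested on simulated data.

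The genes and lists were chosen with earlier results of these data known. Named genes are the 10, their 2 nearest tested neighbours per side, up to 3 called genes per list and direction, and the 5 largest falls and rises between APC and DDX41 averaging 5 or more in the higher group; antisense, small RNA and uncharacterized loci were left out, and further list members are examples picked after their values were seen. Of the partner lists, 1 list and some genes of others count in the totals but are not reported here. In the gene lists, the higher row was used for a repeated symbol. Counts by position kept every row, so MATR3 appears there more than once. Alternatives changed the pseudocount (0.1, 5), the minimum mean (none, 5), the prior (no trend, robust) or the centring, added the replicate number as a block, or left out each library. Python 3.11.15 with pandas 2.3.3, NumPy 2.4.6 and Matplotlib 3.10.9 made tables and plots.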

Additional observations from a re-analysis of the deposited data

How the results depend on the processing

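The 8 tested genes kept a negative log2 difference in all 14 alternatives, and 120 of the 126 recomputed counts stayed within 1.5 times the reported count. With libraries left out, the number of the 8 genes called lower ranged from 5 to 7. Over all tested genes, the lower calls in these fits ranged from 1492 to 1670, in place of 1881. Partner genes called higher ranged from 15 to 21, the lowest with OTX P/R replicate 1 or 2 left out. Partner genes called lower ranged from 17 to 22. With a minimum mean of 5, 134 rather than 227 genes between APC and DDX41 were tested. Those called higher went from 28 to 2 and those called lower from 138 to 102, so the higher count depended on the minimum mean. NPM1 and G3BP1 each lost their call in 4 fits with a library left out, and CTNNA1 in 6 and with no minimum mean. The cause was not tested. The EGR1 difference depended on the pseudocount, 0.26 at 0.1 and 0.04 at 5. Same-numbered libraries did not deviate together (correlations -0.0647, -0.0277 and -0.000294). No pairing by number was seen in the values, which cannot show whether the libraries were prepared in pairs. With the replicate block, 1552 genes were called lower and 1607 higher in place of 1881 and 1998, and all 8 genes remained lower. Depth is unknown, which limits what can be said of APC and EGR1.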
